A study of Mus musculus with 4 samples.

Results

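The genes described here are 41 transcripts of microglia and border macrophages, measured in brain endothelial cells of newborn mice. They were selected by a fixed list of symbols, drawn up with earlier results of these data known, and are 41 of the 21578 genes that the tables held. All 41 were found, and all 41 passed the filter on low counts that left 15909 genes for testing. The list sets 3 genes of parenchymal microglia (P2ry12, Tmem119 and Sall1) beside 4 genes of border macrophages (Mrc1, Lyve1, Pf4 and F13a1), and the other members are genes that these and related myeloid cells share.

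RNA came from brain endothelial cells of Pd1fl/fl and Pd1cKO-Tie2 mice of the C57BL/6 strain at P0 (postnatal day 0), with 2 libraries per genotype. Both genotypes carry the floxed Pd1 (Pdcd1) gene, which encodes the checkpoint receptor PD-1, and Pd1cKO-Tie2 mice also carry Cre driven by the Tie2 promoter. Tie2-driven Cre acts in endothelium and is also known to act in blood cell lineages. The study's methods describe cortical cells labeled with antibodies to CD31, an endothelial protein, and CD45, a leukocyte protein, before sorting, and do not state the gate. Nothing in the labels ties a library to 1 animal or litter, so p-values measure the spread between these libraries, which may be technical.

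Microglia are the resident macrophages of the brain parenchyma. They arise from yolk sac precursors, depend on signals through the receptor encoded by Csf1r, and carry purinergic receptors such as the P2ry12 product and the transcription factor encoded by Sall1. Border macrophages live in the meninges, the choroid plexus and the perivascular space, where they lie against blood vessels, and are known for the mannose receptor (Mrc1), the hyaluronan receptor (Lyve1) and scavenger receptors (Cd163).

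Both cell populations depend on PU.1, the ETS family factor encoded by the member gene Spi1, which binds purine-rich sites with a GGAA core. Sequences before the gene start are shown for members with contrasting values. These members are microglia genes (P2ry12 and P2ry13), shared myeloid genes (Trem2 and Ctss) and border macrophage genes (Mrc1 and Pf4). The sequences are the 250 bases upstream of the gene start in RefSeq (GRCm38.p6), 5′ to 3′ on the gene's strand. P2ry12, P2ry13, Trem2 and Ctss were lower in both Pd1cKO-Tie2 libraries than in both Pd1fl/fl libraries, and Mrc1 and Pf4 were not. The windows lie at chr3:59262986-59263235 (P2ry12, minus strand), chr3:59210883-59211132 (P2ry13, minus strand), chr17:48346151-48346400 (Trem2, plus strand), chr3:95526536-95526785 (Ctss, plus strand), chr2:14229164-14229413 (Mrc1, plus strand) and chr5:90772185-90772434 (Pf4, plus strand). Capitals mark GAGGAAG or its reverse complement CTTCCTC.
P2ry12: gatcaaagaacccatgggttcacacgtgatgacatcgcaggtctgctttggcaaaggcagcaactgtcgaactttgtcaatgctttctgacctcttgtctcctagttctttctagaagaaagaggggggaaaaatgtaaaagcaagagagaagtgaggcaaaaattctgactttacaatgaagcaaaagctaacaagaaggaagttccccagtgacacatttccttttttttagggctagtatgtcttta
P2ry13: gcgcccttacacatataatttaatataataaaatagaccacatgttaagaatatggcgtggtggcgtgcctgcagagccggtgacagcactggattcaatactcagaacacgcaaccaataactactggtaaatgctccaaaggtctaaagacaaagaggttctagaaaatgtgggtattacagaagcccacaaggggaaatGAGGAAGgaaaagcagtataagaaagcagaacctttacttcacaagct
Trem2: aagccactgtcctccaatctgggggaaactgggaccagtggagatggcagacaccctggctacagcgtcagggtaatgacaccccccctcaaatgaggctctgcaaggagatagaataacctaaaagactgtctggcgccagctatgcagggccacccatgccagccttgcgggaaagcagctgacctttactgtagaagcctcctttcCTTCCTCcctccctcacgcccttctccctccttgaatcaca
Ctss: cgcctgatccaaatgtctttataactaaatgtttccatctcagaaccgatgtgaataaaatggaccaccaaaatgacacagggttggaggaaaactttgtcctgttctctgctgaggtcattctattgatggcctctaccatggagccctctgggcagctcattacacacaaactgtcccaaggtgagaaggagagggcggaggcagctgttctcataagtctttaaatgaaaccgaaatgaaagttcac
Mrc1: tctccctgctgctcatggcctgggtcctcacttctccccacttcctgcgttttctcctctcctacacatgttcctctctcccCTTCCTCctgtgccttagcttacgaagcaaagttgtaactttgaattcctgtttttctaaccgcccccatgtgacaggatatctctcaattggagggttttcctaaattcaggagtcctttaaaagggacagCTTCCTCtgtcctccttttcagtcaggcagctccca
Pf4: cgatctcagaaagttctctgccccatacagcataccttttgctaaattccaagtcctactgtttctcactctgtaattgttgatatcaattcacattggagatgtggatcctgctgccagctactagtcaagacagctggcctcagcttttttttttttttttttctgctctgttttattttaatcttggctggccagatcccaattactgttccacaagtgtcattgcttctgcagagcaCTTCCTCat
Of the 41 members 31 had an entry in the RefSeq table. GAGGAAG, on either strand, was in the windows of 11 of the 31 members (35.5%) and of 12% of 27025 genes. The 11 were Mrc1, Pf4, F13a1, P2ry13, Fcrls, Trem2, Itgam, Cd33, C1qc, Laptm5 and Hpgds, which belong to the microglia, border macrophage and shared groups alike. GAGGAAGT, which contains the shorter motif, was in 3 of 31 members (9.68%) and in 2.79% of genes. AGAGGAAGT, 1 base longer, was in 0 of 31 members and in 0.94% of genes. These letters were searched after the values were seen, and a match is a description of the window, not a site of binding.

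The total count was 14359990 and 13715837 in the Pd1fl/fl libraries and 24147311 and 14157027 in the Pd1cKO-Tie2 libraries. Where a library had 0 counts for a gene, counting error alone allows 3 counts, which correspond to 0.124 to 0.219 CPM (read counts scaled to the total of the library). Levels below are CPM scaled by the TMM factors of edgeR. They are given in the order Pd1fl/fl replicates 1 and 2, then Pd1cKO-Tie2 replicates 1 and 2. The replicate numbers are used only as names. Pdcd1 had 32, 0, 0 and 0 counts and did not pass the filter, so it did not check the genotype labels. Of the gene lists read here, endothelial markers had the highest sum in every library. The 12 on the list summed to 15010, 14138, 18221 and 18910 CPM, with Cldn5 (claudin 5) the most abundant at 5505, 4764, 6548 and 6993 CPM. One control library stood apart in neutrophil genes, whose 11 listed genes summed to 956.8, 27.6, 66.2 and 3.22 CPM. Of these Ngp (411.9, 0, 1.17 and 0 CPM) and S100a8 (36.8, 0.492, 0.209 and 0.95 CPM) met the 2-fold criterion described below. Pd1cKO-Tie2 replicate 1 stood apart in the member genes, as described below.

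The member genes were lower in Pd1cKO-Tie2 libraries on average, with a wide gap between the 2 libraries of that genotype. The summed level of the 41 members was 4184, 4867, 1783 and 3491 CPM, or 4526 ± 482.9 in Pd1fl/fl and 2637 ± 1208 in Pd1cKO-Tie2 (SD, n = 2 each). Both Pd1cKO-Tie2 libraries lay below both Pd1fl/fl libraries, and the ratio of the means was -0.78 on the log2 scale. Relative to the 12 endothelial markers of the same library, the members came to 27.9%, 34.4%, 9.78% and 18.5%. Fewer cells of a type and less RNA per cell cannot be told apart in bulk samples.

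By gene, 37 of the 41 members had a negative log2 fold change, against 50.4% of the 15909 tested genes. The median log2 fold change of the members was -0.81, and that of all tested genes was -0.004. Both Pd1cKO-Tie2 libraries were below both Pd1fl/fl libraries for 25 of 41 members (18.1% of all tested genes), and both were above for 0 of 41 (17.7% of all tested genes). The criterion in the study's methods, a fold change of at least 2 with a p of 0.05 or less, was met by 7 members (4.02% of all tested genes, 2.61% in the lower direction). All 7 were lower, namely Tmem119, P2ry13, Trem2, Itgam, Mertk, Ctss and Spi1, and 0 of 41 were higher (1.41% of all tested genes). A further 8 members had an edgeR p of 0.05 or less with a smaller fold (Csf1r, P2ry6, Ptprc, Cd53, Selplg, C1qb, Lyz2 and Laptm5), which brought the lower members at that p to 15 of 41, beside 3.55% of all tested genes, and 0 of 41 members were higher at that p, beside 2.84%. When p-values were adjusted for all 15909 genes by the Benjamini-Hochberg method, 0 members passed in edgeR, where the smallest adjusted p of any gene was 0.735 (0% of genes). DESeq2 gave an adjusted p under 0.05 to Ctss (0.015) and Laptm5 (0.0209), among 0.528% of the genes it tested. Under the other alternatives to edgeR's main test the adjusted p ranged from 0.0881 to 0.996 for Ctss and from 0.0961 to 0.996 for Laptm5.

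**Figure D1:**
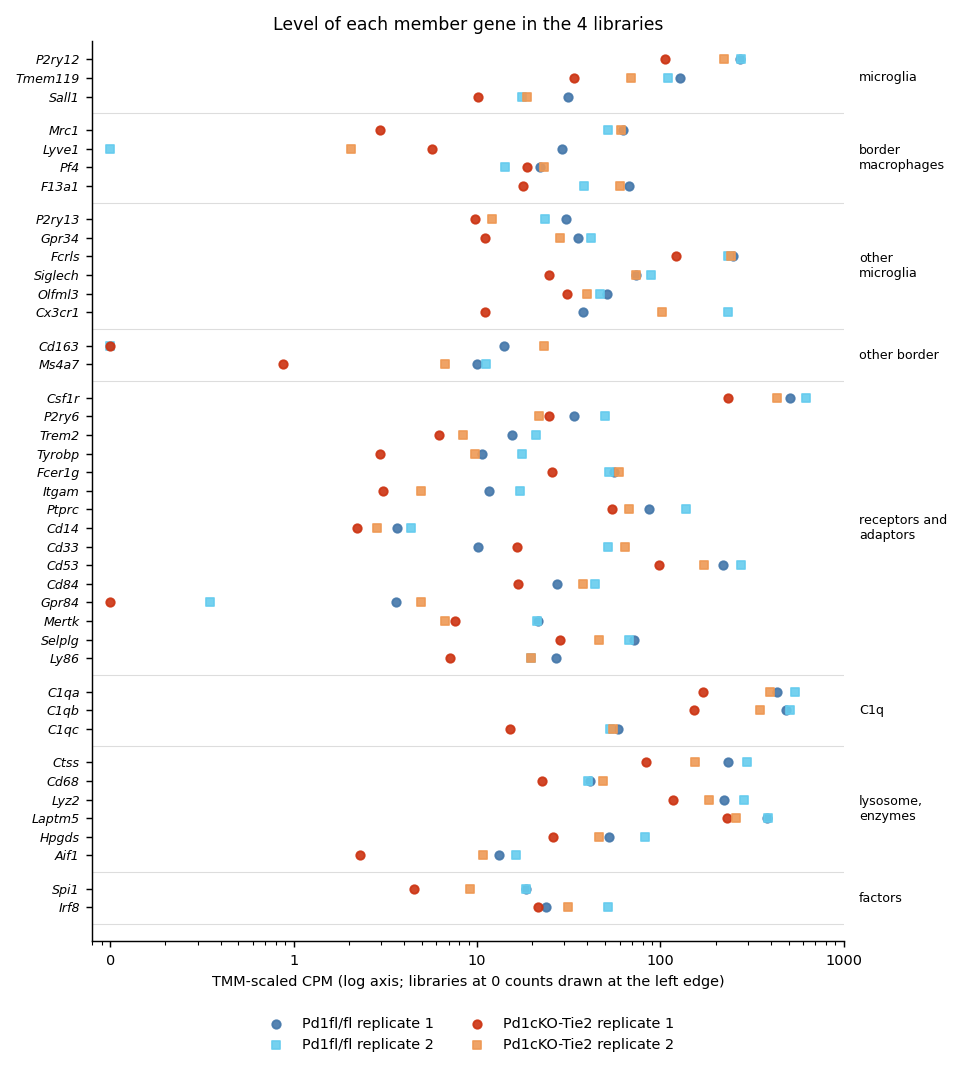
Level of each of the 41 member genes in the 4 libraries, as TMM-scaled CPM on a log axis with libraries at 0 counts at the left edge. Genes are grouped by role, and Pd1cKO-Tie2 replicate 1 is the lowest library for 35 of the 41 members.

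The 3 microglia genes of the list had negative log2 fold changes, and Tmem119 met the 2-fold criterion. P2ry12, which encodes the ADP receptor that guides microglial processes, was at 272.4, 274.8, 106.6 and 222.9 CPM. Both control libraries were nearly equal and both Pd1cKO-Tie2 libraries were below them, with a log2 fold change of -0.73 ± 0.35 (SE) and an edgeR p of 0.08. Tmem119, a transmembrane protein gene used to tell microglia from other macrophages, was at 127.3, 110.6, 33.8 and 69.1 CPM. Its groups did not overlap, and its log2 fold change was -1.21 ± 0.37 with an edgeR p of 0.0175 (adjusted p 0.735). Sall1, which encodes a zinc finger factor of microglial identity, was at 31.2, 17.6, 10.1 and 18.7 CPM. Here Pd1cKO-Tie2 replicate 2 lay above the second control, and the log2 fold change was -0.76 ± 0.49 with an edgeR p of 0.171.

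None of the 4 border macrophage genes met the 2-fold criterion in edgeR, where 0 of the 4 also had an unadjusted p under 0.05, and their groups overlapped for all 4. At the same unadjusted criterion DESeq2 also called 0 of them, whereas limma-voom called Mrc1. After adjustment both methods called 0 of them. Mrc1, the mannose receptor gene, was at 62.5, 51.6, 2.97 and 61.1 CPM. A single Pd1cKO-Tie2 library was low, with 71 counts against 836 in the other library of the genotype, and the log2 fold change of -0.84 ± 1.15 turned to 0.11 without it. In limma-voom it was -2.54 with an unadjusted p of 0.0292. Lyve1, the hyaluronan receptor gene that lymphatic endothelium also expresses, was at 29.1, 0, 5.72 and 2.05 CPM, and the highest and the lowest library were both controls. Pf4, a chemokine gene shared with platelets, was at 22.2, 14.2, 18.8 and 23.2 CPM. It had the opposite sign, with a log2 fold change of 0.21 ± 0.39 and an edgeR p of 0.614. F13a1, which encodes a coagulation factor subunit, was at 67.1, 38.4, 17.9 and 59.9 CPM. Pd1cKO-Tie2 replicate 2 lay between the controls, and the log2 fold change was -0.44 ± 0.60 with an edgeR p of 0.491.

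Set side by side, the microglia genes summed to 430.9, 403.1, 150.6 and 310.8 CPM, or 417 ± 19.7 against 230.7 ± 113.3 (SD, n = 2 each). The border macrophage genes summed to 180.8, 104.2, 45.4 and 146.2 CPM, or 142.5 ± 54.2 against 95.8 ± 71.2. The microglia sums did not overlap between genotypes and the border macrophage sums did. Within each library the microglia sum was 2.38, 3.87, 3.31 and 2.13 times the border macrophage sum, a ratio that does not depend on library scaling. The Pd1cKO-Tie2 ratios overlapped those of Pd1fl/fl, and the log2 difference of the ratio between genotypes was -0.19, less than the spread between replicates (SD 0.47). With each gene weighted equally (mean of log2 levels) the log2 difference between genotypes was -0.96 for the microglia genes and -0.17 for the border macrophage genes, where Lyve1 entered with a library at 0. The gap between the 2 gene groups thus depends on how the genes are combined, and it was not tested. With 2 libraries against 2, an exact two-sided permutation test cannot give a p below 0.33, so no test of the sums was made.

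**Figure D2:**
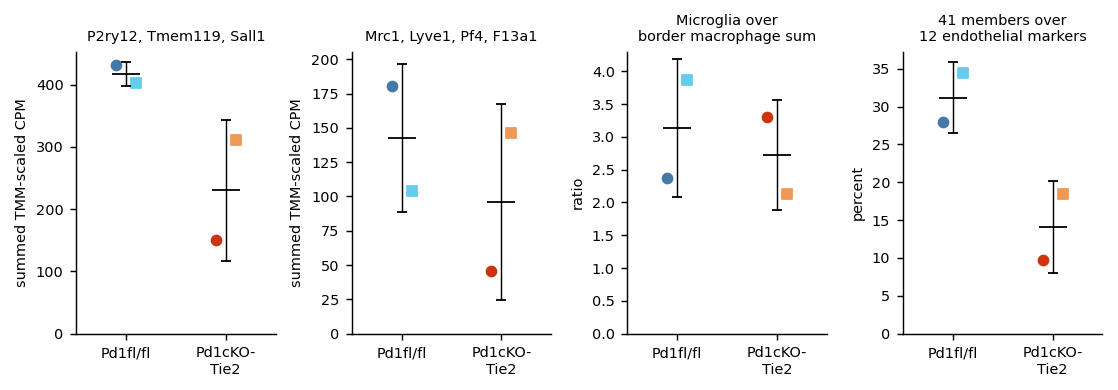
Summed TMM-scaled CPM of the 3 microglia genes and of the 4 border macrophage genes, the ratio of these sums, and the sum of all 41 members as a percent of 12 endothelial markers. Points are libraries (circle replicate 1, square replicate 2) and bars are the mean with the SD of 2. The microglia sums do not overlap between genotypes, whereas the border macrophage sums and the ratios do.

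Among the 6 other microglia genes, P2ry13 met the 2-fold criterion (2.61% of all tested genes, lower direction). In 3 of the 6 the groups did not overlap (18.1% of all tested genes), all lower. P2ry13, a receptor gene next to P2ry12 on chromosome 3, was at 30.5, 23.5, 9.77 and 12.1 CPM. The libraries of each genotype were close, and the log2 fold change was -1.31 ± 0.37 with an edgeR p of 0.0131 (adjusted p 0.735). Gpr34, a lysophosphatidylserine receptor gene, was at 35.7, 42.1, 11 and 28.3 CPM, with both Pd1cKO-Tie2 libraries below the controls and a log2 fold change of -0.99 ± 0.49. Olfml3, a secreted glycoprotein gene, was at 51.1, 47, 30.9 and 39.6 CPM, with the same order and a log2 fold change of -0.48 ± 0.27. Fcrls, an Fc receptor-like scavenger receptor gene, was at 249.1, 232.7, 122 and 243.5 CPM. Siglech, a sialic acid-binding lectin gene, was at 73.4, 89.1, 24.8 and 73.6 CPM. In both genes 1 Pd1cKO-Tie2 library reached the level of the controls. Cx3cr1, the fractalkine receptor gene, varied most within genotypes among these 6 genes, at 37.7, 232.7, 11 and 102.3 CPM, and its log2 fold change of -1.26 ± 1.17 turned to 0.59 without Pd1fl/fl replicate 2.

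Neither of the 2 other border macrophage genes met the criterion in edgeR. Cd163, the scavenger receptor for hemoglobin bound to haptoglobin, was at 14.1, 0, 0 and 23.2 CPM, so that each genotype held 1 library with reads and 1 without. Ms4a7, a membrane protein gene, was between 10 and 11.2 CPM in the controls and at 0.877 and 6.72 CPM in Pd1cKO-Tie2, with a log2 fold change of -1.49 ± 1.00 and an edgeR p of 0.189. In limma-voom it met the criterion, with -2.62 and an unadjusted p of 0.0172.

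The receptors and adaptors that myeloid cells share make up 15 members. Of these 3 met the 2-fold criterion (2.61% of all tested genes, lower direction) and 8 had an edgeR p of 0.05 or less (3.55%). The groups of 11 did not overlap (18.1%), and all of these members were lower. Csf1r, the receptor gene for CSF1 and IL-34, was at 507.2, 619.1, 234.2 and 433.5 CPM. Its log2 fold change was -0.75 ± 0.30 with an edgeR p of 0.0491, and 15.12% of its exon length overlaps Hmgxb3 on the other strand. Ptprc, which encodes the CD45 of the sorting antibody, was at 86.2, 138.3, 54.5 and 67.8 CPM. Its reads were present in every library, below the controls in both Pd1cKO-Tie2 libraries, with a log2 fold change of -0.88 ± 0.29 and an edgeR p of 0.0259. Mertk, a receptor tyrosine kinase gene for the uptake of dying cells, was at 21.4, 21.2, 7.56 and 6.72 CPM. Among the members that met the criterion it had the least spread within genotypes, with a log2 fold change of -1.58 ± 0.40 and an edgeR p of 0.00836 (adjusted p 0.735).

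Trem2, a lipid-sensing receptor gene, was at 15.6, 21, 6.22 and 8.41 CPM, with a log2 fold change of -1.33 ± 0.46 and an edgeR p of 0.0285. Itgam, which encodes the CD11b chain of complement receptor 3, was at 11.6, 17.2, 3.09 and 4.97 CPM, with a log2 fold change of -1.84 ± 0.58 and an edgeR p of 0.0199. Both met the 2-fold criterion, although Itgam is uncertain because 68.67% of its exon length is shared on the same strand with the gene model Gm49368. P2ry6, the UDP receptor gene linked to phagocytosis, was at 34, 49.8, 24.6 and 21.9 CPM. Cd53, a tetraspanin gene of leukocytes, was at 219.2, 273.8, 98.7 and 173.7 CPM. Selplg, which encodes the ligand of P-selectin and lies beside Tmem119 on chromosome 5, was at 72.1, 67.5, 28.3 and 46.1 CPM. These 3 genes had p-values of 0.04, 0.0304 and 0.0276 in edgeR with folds under 2, and their groups did not overlap.

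The remaining receptors did not reach a p of 0.05 in edgeR. Ly86, which encodes the partner of the receptor RP105, was at 26.9, 19.8, 7.1 and 19.6 CPM. Fcer1g, the common Fc receptor gamma chain gene, was at 55.7, 52.2, 25.5 and 59.5 CPM, and Cd84, a SLAM family receptor gene, was at 27.3, 44, 16.7 and 37.8 CPM. In the last 2 genes Pd1cKO-Tie2 replicate 2 was at the level of the controls. Cd33, a sialic acid-binding lectin gene, was at 10.1, 52.1, 16.5 and 64.2 CPM, high in replicate 2 of both genotypes. Tyrobp (DAP12, the adaptor of the Trem2 receptor) and Cd14 (a coreceptor for lipopolysaccharide) lay between 2.21 and 17.6 CPM, with both Pd1cKO-Tie2 libraries below both controls. Limma-voom gave Tyrobp a log2 fold change of -1.56 with an unadjusted p of 0.0432. Gpr84, a receptor gene for medium-chain fatty acids, lay between 0 and 4.97 CPM with no separation of the genotypes.

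The C1q genes, whose products form the recognition unit of the classical complement pathway, include the members with the highest levels. Per kilobase of exon, mean levels in Pd1fl/fl were highest for C1qa (468 CPM per kilobase) and C1qb (458), followed by Ctss (195.2) and Lyz2 (193.3), and were lowest for Gpr84 (1.15). C1qa and C1qb were also the 2 highest members in Pd1cKO-Tie2, at 272.3 and 230.6 CPM per kilobase. C1qa was at 432.3, 541.1, 170.2 and 396.3 CPM with a log2 fold change of -0.78 ± 0.39, and C1qb at 486.1, 510.6, 153.4 and 348.4 CPM with -0.99 ± 0.37. Both had lower levels in both Pd1cKO-Tie2 libraries, and C1qb had an edgeR p of 0.0393. C1qc, which lies between them on chromosome 4, was at 58.7, 53.3, 15.1 and 54.9 CPM, and its second Pd1cKO-Tie2 library lay between the controls.

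Among lysosomal, enzyme and cytoplasmic genes, 1 of 6 met the 2-fold criterion (2.61% of all tested genes, lower direction). In 5 of 6 the groups did not overlap (18.1% of all tested genes), all lower. Ctss, the cathepsin S gene of antigen processing, was at 234.9, 295.3, 83.7 and 155 CPM. It met the criterion with a log2 fold change of -1.15 ± 0.32 and an edgeR p of 0.0123. Laptm5, a lysosomal membrane protein gene of blood cells, was at 380.9, 388.3, 231.6 and 258.2 CPM. It was the most even member within genotypes among these 6, with a log2 fold change of -0.65 ± 0.14 and an edgeR p of 0.00435. Lyz2, the lysozyme gene of macrophages and neutrophils, was at 223.1, 285.6, 117.6 and 184.1 CPM with a log2 fold change of -0.75 ± 0.26 and an edgeR p of 0.0305, and 15.4% of its 50-base stretches also occur in Lyz1. Hpgds, a prostaglandin D synthase gene, was at 52.7, 82.3, 25.9 and 46 CPM, and Cd68, a lysosomal glycoprotein gene, at 41.3, 40.4, 22.6 and 48.5 CPM. Hpgds did not overlap between genotypes and Cd68 did. Aif1, which encodes the IBA1 protein used to stain microglia, lay between 13.2 and 16.4 CPM in Pd1fl/fl and at 2.3 and 10.8 CPM in Pd1cKO-Tie2, with a log2 fold change of -1.18 ± 0.79.

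Of the transcription factors, Spi1 (PU.1) was at 18.6, 18.6, 4.55 and 9.14 CPM. It met the 2-fold criterion, with a log2 fold change of -1.45 ± 0.52 and an edgeR p of 0.0325. Irf8, the partner of PU.1 in myeloid development, was at 23.7, 51.5, 21.4 and 31.4 CPM, and its groups overlapped.

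**Figure D3:**
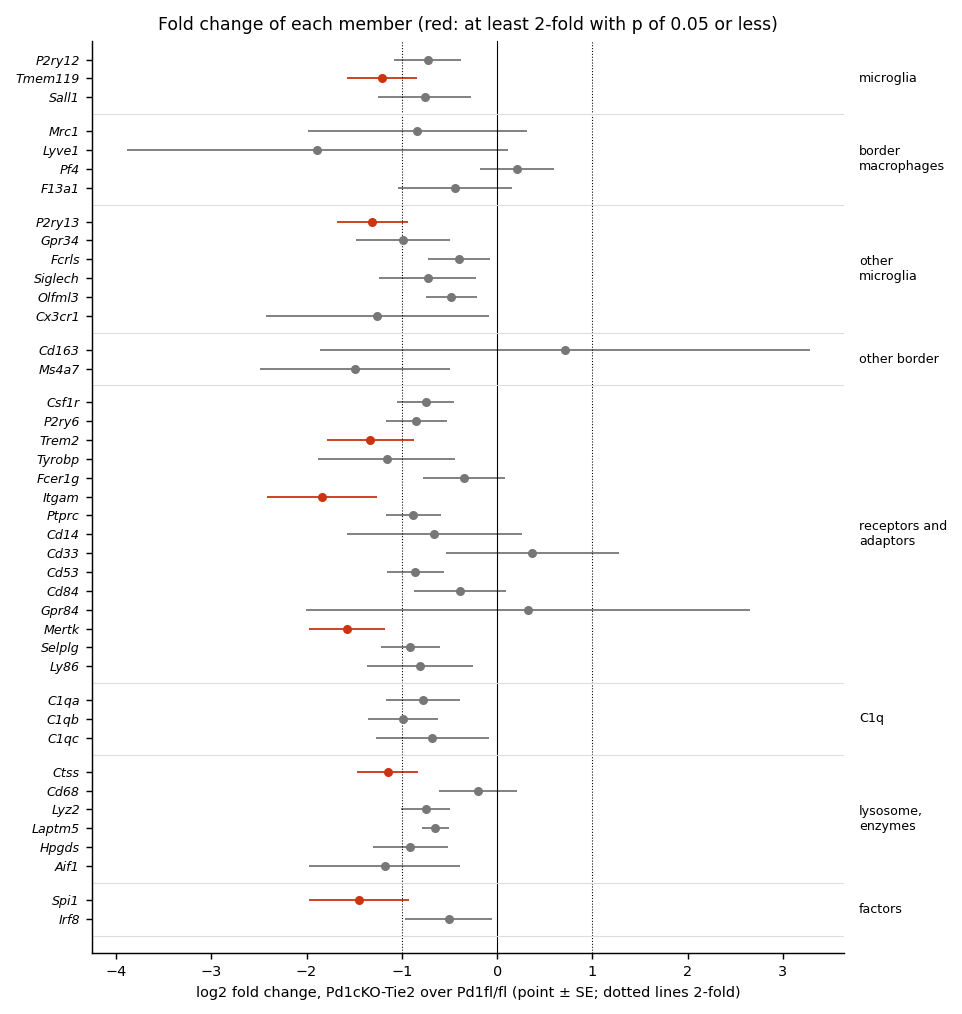
Log2 fold change of each member, Pd1cKO-Tie2 over Pd1fl/fl, with its SE from edgeR. Red points met the 2-fold criterion with a p of 0.05 or less, and dotted lines mark a 2-fold change. The 7 red members are all lower, and the widest errors belong to Cd163, Gpr84 and Lyve1, each with a library at 0.

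The libraries of Pd1cKO-Tie2 differed from each other in most of these genes. The median member was 1.00 higher on the log2 scale in replicate 2 than in replicate 1, and 38 of 41 members were higher there. Over the 9448 tested genes with a mean of at least 10 CPM the same median was 0.01. Of the 35 members at that level 18 were more than 2-fold apart between the Pd1cKO-Tie2 libraries, against 9.37% of those genes. The Pd1fl/fl libraries were closer, with a median member difference of 0.07. Of the same 35 members 3 were more than 2-fold apart there, near the share of 9.49% among the genes at that level. Pd1cKO-Tie2 replicate 1 was also the deepest library, and with its counts thinned to the smallest total the same 7 members met the criterion. Thinning keeps each gene's expected share of the library, so it cannot show whether depth is related to the low member levels.

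Leaving out each library showed how far the member values rest on 1 of them. Without Pd1cKO-Tie2 replicate 1 the median log2 fold change of the 41 members was -0.44. Fewer members met the 2-fold criterion than with all 4 libraries, so the 7 calls rest largely on that library. Without Pd1cKO-Tie2 replicate 2 the median was -1.46, and more members met the criterion. Without Pd1fl/fl replicate 1, the library with the neutrophil genes, the median was -0.89. Without Pd1fl/fl replicate 2 the median was -0.69. These fits leave 1 library in a genotype, so their calls are not counted here. The median was negative in each of these fits, while that of all tested genes lay between -0.068 and 0.044.

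**Figure D4:**
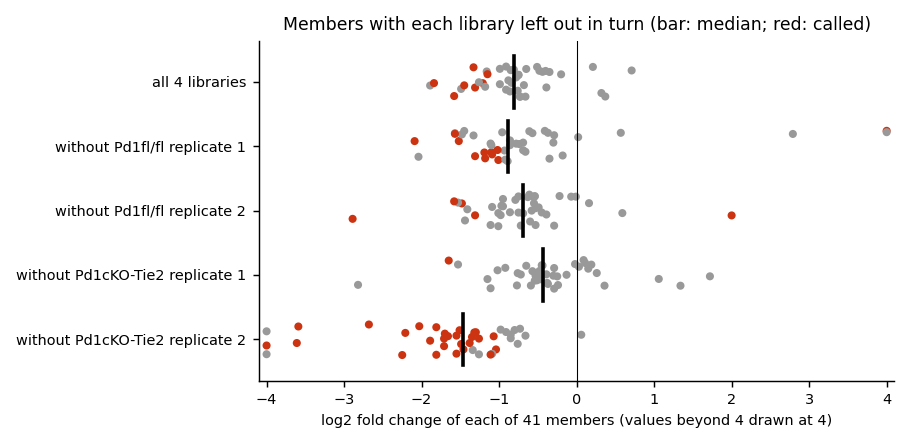
Log2 fold changes of the 41 members with all 4 libraries and with each library left out in turn. Black bars are medians, which move from -0.44 to -1.46, and red points met the 2-fold criterion.

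Ligands and partners of the member receptors were described in the same way, without a test of their difference from the members. Of 9 tested genes 6 had a negative log2 fold change (50.4% of all tested genes) and 0 met the 2-fold criterion in either direction (4.02%). Only Axl had an edgeR p of 0.05 or less (3.55% of all tested genes, lower direction), and 0 passed adjustment in DESeq2. Their median log2 fold change was -0.13. The ligands of the Csf1r product, Csf1 (93.5, 95, 59.3 and 103.4 CPM) and Il34 (8.79, 8.51, 6.31 and 7.67 CPM), had log2 fold changes of -0.21 ± 0.30 and -0.31 ± 0.55. Cx3cl1, the fractalkine gene, was at 41.7, 72.3, 46.4 and 100.5 CPM, with 0.37 ± 0.45. The ligands of the Mertk product, Gas6 and Pros1, had log2 fold changes of 0.23 ± 0.26 and -0.13 ± 0.15. Axl, a kinase gene of the Mertk family that endothelial cells also express, was at 138.1, 102.3, 74.7 and 65.6 CPM. It was below both controls in both Pd1cKO-Tie2 libraries, with a log2 fold change of -0.78 ± 0.23 and an edgeR p of 0.0168. Tyro3, the other kinase gene of that family, had 0.52 ± 0.80. Apoe, a lipid carrier bound by the Trem2 product, was at 1034, 1451, 771.9 and 1096 CPM with -0.41 ± 0.23, and Tgfb1, the growth factor gene that microglia depend on, was at or below 2.19 CPM in every library.

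Further myeloid genes outside the list were read for the same comparison. Of 44 further microglia and myeloid genes 43 were tested. A negative log2 fold change was found for 41 (50.4% of all tested genes), and the median of the list was -0.73. The 2-fold criterion was met by 11, all lower (2.61% of all tested genes). The 11 were Runx1 and Ikzf1 (transcription factors of blood cells), Vav1, Nckap1l and Dock8 (regulators of the cytoskeleton in blood cells), Lair1 and Fcgr2b (inhibitory receptors), Cybb (the NADPH oxidase subunit) and the receptor genes Csf3r, Csf2ra and Csf2rb. Lgmn (legumain), the most abundant gene of that list, was at 875.8, 1008, 456.3 and 736 CPM with -0.66 ± 0.24. Dock8 had a log2 fold change of -1.94 ± 0.38 with levels of 24.7, 26.5, 6.31 and 7.02 CPM. Csf2rb, the shared receptor chain gene for GM-CSF, IL-3 and IL-5, was at 100.4, 132.2, 36.5 and 49.4 CPM. Its log2 fold change was -1.44 ± 0.27, with a DESeq2 adjusted p of 0.00197 (0.00556 to 0.996 under the other alternatives). Without Pd1cKO-Tie2 replicate 1 the median of these further genes was -0.54.

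Of 16 tested further border macrophage genes 2 met the criterion, both lower (2.61% of all tested genes). A negative log2 fold change was found for 13 (50.4% of all tested genes). The 3 with a positive value were Cbr2 (0.68 ± 2.16), Stab1 (0.17 ± 0.22) and Dab2 (0.07 ± 0.17). The median of this list was -0.89. Ccl24, a chemokine gene that attracts eosinophils, was at 18.8, 12.6, 0.752 and 4.6 CPM. Clec10a, a galactose-binding lectin gene, was at 1.38 and 1.2 CPM in Pd1fl/fl and at 0 in both Pd1cKO-Tie2 libraries, at least 7.49-fold lower against a floor of 3 counts per library. The most abundant gene of that list, Ctsb (cathepsin B), was at 1315, 1374, 851.4 and 1101 CPM.

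Genes of early postnatal amoeboid microglia, the phagocytic form found near developing fiber tracts, were mostly negative by sign, with 1 exception past the criterion. Of 16 tested genes 11 had a negative log2 fold change (50.4% of all tested genes), and the median was -0.28. An edgeR p of 0.05 or less was reached by 4 in the lower direction (3.55% of all tested genes) and by 1 in the higher (2.84%). The most abundant gene, Ctsl (cathepsin L), was at 403.2, 327.6, 343 and 380.9 CPM. Ccl3, a chemokine gene named after its values were seen, was at 357.5, 470.4, 154.2 and 272 CPM. It was lower, with a log2 fold change of -0.96 ± 0.30, an edgeR p of 0.0204 and a DESeq2 adjusted p of 0.0404 (0.161 to 0.996 under the other alternatives). The 1 gene that met the 2-fold criterion was higher, namely Spp1 (osteopontin), at 12.7, 23.2, 42.3 and 98.2 CPM with a log2 fold change of 1.97 ± 0.52 and a DESeq2 adjusted p of 0.015 (0.0579 to 0.996 under the other alternatives). Spp1 was above both controls in both Pd1cKO-Tie2 libraries, the opposite of the 25 members whose groups did not overlap.

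Markers of some other cells also differed between the genotypes, and their part in the member results was not tested. The neuron, platelet, erythroid, oligodendrocyte lineage, fibroblast and pericyte lists had medians of -0.11, -0.03, -0.01, -0.01, -0.04 and -0.24. In each of these lists 0 genes met the criterion. All 12 endothelial markers were above both controls in both Pd1cKO-Tie2 libraries (17.7% of all tested genes), with log2 fold changes of 0.21 to 0.47. Of these markers 0 were at 2-fold, although 6 had an edgeR p of 0.05 or less (2.84% of all tested genes, higher direction). Radial glia and astrocyte genes were lower in 8 of 8 by sign, with a median of -0.97, 2 that met the criterion (Fabp7 and Hes5) and sums of 928.3, 968.6, 631 and 464.7 CPM. Unlike the members, that sum was lowest in Pd1cKO-Tie2 replicate 2. Mast cell and basophil genes summed to 401.9, 600.8, 327.4 and 285.1 CPM, and Ms4a2, the beta chain gene of the IgE receptor, met the criterion with 52.7, 96.9, 22.1 and 8.7 CPM. Of 6 tested monocyte genes 5 had a negative log2 fold change, with a median of -0.71. In that list 0 met the criterion, 0 had an edgeR p of 0.05 or less and 0 passed adjustment in DESeq2. Of 8 tested lymphocyte genes 6 had a negative log2 fold change, with a median of -0.61. Only Cd8a met the criterion, in the higher direction, at 0 in both controls. In Pd1cKO-Tie2 it was at 1.13 and 1.32 CPM, which were 27 and 18 counts. Platelet genes, to be read beside Pf4, summed to 125.4, 151.9, 148.9 and 106.5 CPM. The 4 genes listed for lymphatic endothelium, to be read beside Lyve1, summed to 135.8, 91.9, 137.8 and 121.8 CPM.

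**Figure D5:**
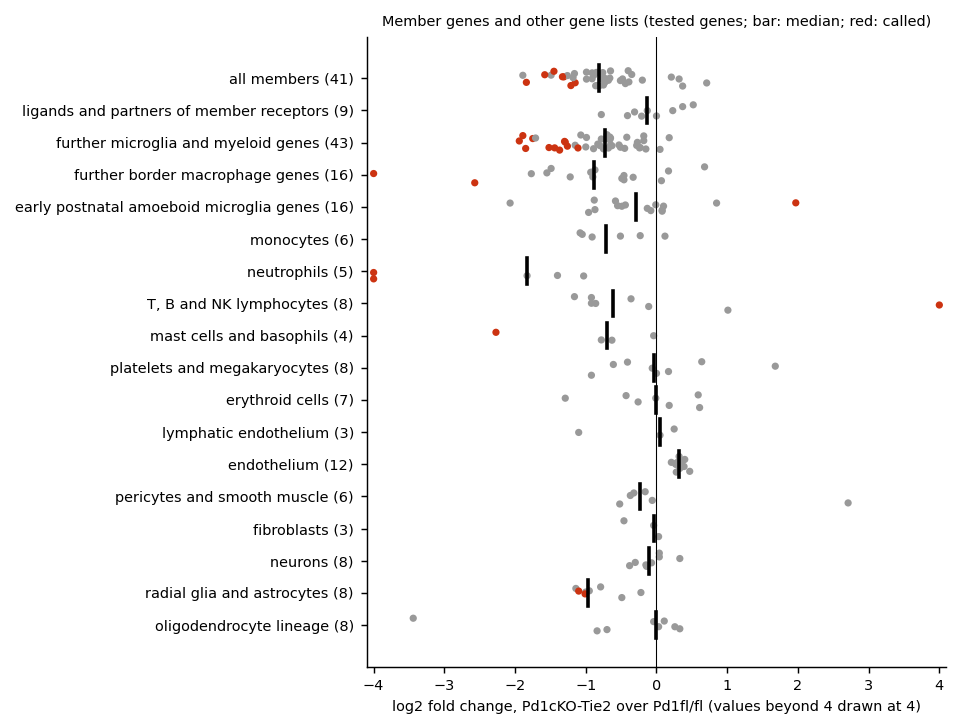
Log2 fold changes of the tested genes in each list, with the number tested in brackets. Black bars are medians and red points met the 2-fold criterion. Medians below 0 include those of the members (-0.81), further myeloid (-0.73), further border macrophage (-0.89) and radial glia and astrocyte genes (-0.97). That of the endothelial markers (0.32) is above 0.

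In the genome, several members lie next to each other. In GRCm38 coordinates as the tables give them, the C1q genes occupy chr4:136880129-136886187 (C1qb), chr4:136889804-136893065 (C1qc) and chr4:136895917-136898803 (C1qa), all on the minus strand. P2ry13 (chr3:59207892-59210882) and P2ry12 (chr3:59216272-59262871) are also neighbors on the minus strand, as are Tmem119 (chr5:113793729-113800516) and Selplg (chr5:113818536-113832644). In each of these pairs both genes had groups that did not overlap. Of the remaining genes named for the comparison, Sall1 lies at chr8:89027235-89044162, Mrc1 at chr2:14229392-14332057, Lyve1 at chr7:110850607-110863239, Pf4 at chr5:90772435-90773383 and F13a1 at chr13:36867178-37050244.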

How the data were processed

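RNA of P0 brain endothelial cells was isolated with TRIzol and sequenced on an Illumina platform by the authors. The authors deposited 4 tables, each pairing 1 Pd1cKO-Tie2 with 1 Pd1fl/fl library, with whole-number read counts per gene, the same values as CPM, and their own fold changes and p-values for each pair, which were not used. The submitters' processing notes name Bowtie2 2.2.3, TopHat2 2.0.12, HTSeq 0.6.0 and mm9. The positions in the tables are nevertheless those of GRCm38 (90% equal GENCODE M21). The use of strand is not given in the sources used here. From the deposited CPM only the library totals were computed. The second Pd1cKO-Tie2 column has a number that no label carries and was taken as a library of its genotype. Altogether 10 broken lines were left out, and 23 symbols that read as dates were corrected from their identifiers. No row stood for unassigned reads, and 0 counts differed between tables. Genes absent from a library's tables were given 0 counts there, and the reads missed in this way were 0.00495% to 0.0107% of its total.

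Counts were tested in edgeR 4.0.16 under R 4.3.3 (quasi-likelihood F test), with filterByExpr by genotype, TMM scaling and no covariate. The common biological coefficient of variation was 0.61. Fold changes of genes with a library at 0 depend on the prior count. Alternatives were DESeq2 1.42.0, limma-voom (limma 3.58.1), edgeR's likelihood ratio test, RLE and library size scaling, no filter beyond 1 count, a minimum of 10 counts in every library, a block for the column number, and the omission of 1 library at a time, and for the summed levels the mean of log2 levels. Thinning of the deepest library was added after seeing the data. The scripts were tested on simulated counts. Members and lists were chosen with earlier results of these data known. Values in every library are given for the 7 microglia and border macrophage genes set side by side, for members that met the 2-fold criterion, for members at 20 CPM or more in any library, and for Ptprc and Csf1r. Outside the members, genes could be named if they are ligands or partners, met the criterion, or are the most abundant of their list, and not every most abundant gene is named. Other genes were chosen after their values were seen. One gene of the further myeloid list is not reported here.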

Additional observations from a re-analysis of the deposited data

How the results depend on the processing

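With RLE or library size scaling, without a filter, with a minimum of 10 counts in every library, with DESeq2, with the likelihood ratio test and with the deepest library thinned, the 7 members that met the 2-fold criterion were the same 7, with C1qb added under library size scaling, and the members' median stayed between -0.80 and -0.88. Under limma-voom 16 members met it (504 of all genes), the added ones being Mrc1, Gpr34, Siglech, Ms4a7, Tyrobp, Selplg, C1qb, Hpgds and Aif1, and DESeq2 gave 2 members an adjusted p under 0.05 where edgeR gave 0. Limma-voom turned the direction of Lyve1 (1.96), Cd163 (-1.48) and Gpr84 (-2.85), all with a library at 0. Over the tested genes, same-numbered libraries showed almost no shared deviation from their genotype means (correlation -0.02). With 2 libraries per genotype both pairs give this same value by construction. It does not settle whether the numbers pair the samples. With the replicate block 10 members met the criterion instead of 7 and 445 genes instead of 640, the median was -0.90, and Lyve1 (0.55) and Gpr84 (-1.49) turned direction. The likelihood ratio test gave 82 genes an adjusted p under 0.05, none of them members.

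With each library left out in turn, where the lone library is taken to vary like the other group, 1 to 27 members met the criterion, 689 to 877 genes did, and the median ranged from -1.46 to -0.44. The log2 ratio of the microglia sums ranged from -1.47 to -0.42, that of the border macrophage sums from -1.65 to 0.04, that of the sum of all members from -1.34 to -0.37, and the difference between microglia and border macrophage genes from -0.54 to 0.16 (0.13 without Pd1cKO-Tie2 replicate 2). Over the same omissions 13 members changed direction. Without Pd1cKO-Tie2 replicate 1 these were Mrc1 (range over the 4 omissions -4.26 to 0.11), Fcrls (-0.98 to 0.03), Fcer1g (-1.07 to 0.15), Cd84 (-1.09 to 0.09) and Cd68 (-0.85 to 0.26), and without either it or Pd1fl/fl replicate 1 F13a1 (-1.55 to 0.19). Without Pd1fl/fl replicate 2 they were Pf4 (-0.07 to 0.57), Cx3cr1 (-3.61 to 0.59) and Irf8 (-0.96 to 0.16), and without either it or Pd1cKO-Tie2 replicate 2 Cd163 (-9.95 to 10.64) and Gpr84 (-8.12 to 2.79). Lyve1 (-2.89 to 9.08) turned without Pd1fl/fl replicate 1, and Cd33 (-0.91 to 2.00) without that library or Pd1cKO-Tie2 replicate 2. The cause was not tested. Depth limits the low members, since 3 counts are 0.124 to 0.219 CPM.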
